A study of Capsicum annuum with 6 samples.

Results

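The genes described here are the 10 that the study assigned to brassinosteroid biosynthesis among the transcripts of the first branch site of pepper (Capsicum annuum), out of 24829 genes in the deposited table. The study drew them from its own list of genes that differed between B010 and B003 in the same 6 libraries. The differences between the accessions thus chose the genes and are given below as a description. Calls among the 10 genes are counted but are not read as a test of them. RNA-seq was done on the site of the first branch, the fork of the main stem, at the early flowering stage, on 3 libraries of accession B010, which is compact with a small branch angle, and 3 libraries of accession B003, which is loose with a large one. Each library was made from pooled tissue of several plants. Each accession stands for 1 genotype, so the comparison is between these accessions, and any other difference between them cannot be told apart from that in branch angle. The study set out to learn which genes, those of hormone pathways included, go with the angle of the first branch.

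Brassinosteroids are plant steroid hormones. Plants make them from the membrane sterol campesterol by a chain of steps, most of them carried out by a steroid reductase and by cytochrome P450 enzymes, which leads to castasterone and brassinolide, the active forms. The hormones are sensed by a receptor kinase at the cell surface and are best known for driving cell elongation, and in rice they widen the angle between leaf blade and stem. In Arabidopsis, the genes of several of these enzymes are turned down when the hormone is plentiful. The cv.59 identifiers used in the table are not paired here with gene names, and 0 of them matched the RefSeq gene table of the species, which is of assembly UCD10Xv1.1. Which step each of the 10 genes serves is therefore not stated. Their place in the pathway rests on the study's assignment, and neither the tissue label nor the pathway label could be checked against marker genes.

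For 2 of the 10 genes the study designed primers for quantitative RT-PCR, and these are the sequences that tie an identifier to a transcript. They are shown because both genes had fewer than 10 counts in every B010 library, the lowest levels of the 10 genes, and were the ones chosen for that second assay. Each is written 5′ to 3′.
Capann_59Chr11g025550, forward primer: actggagaggactgcaacctg
Capann_59Chr11g025550, reverse primer: cgcctttagatgacgaaacccc
Capann_59Chr12g024870, forward primer: tcagaaggttcaggcaaccaaa
Capann_59Chr12g024870, reverse primer: tgccatggaaccgctgtatt
The primers are 20 to 22 bases long with a GC content of 45.5% to 57.1%. No measurement made with them was analysed here, and no sequence was used for the other 8 genes.

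The 6 libraries held between 29891192 and 47659515 counts on genes, so that 3 counts, as many as a count of 0 leaves possible, came to between 0.0629 and 0.1 counts per 1000000 (CPM). Pearson's r of log2 CPM across genes, which are not independent replicates, was 0.977 between B010 replicates 1 and 2 but 0.948 and 0.917 between each of them and replicate 3. In B003 it was 0.975 between replicates 2 and 3 but 0.936 and 0.934 between replicate 1 and the others. B010 replicate 3 and B003 replicate 1 thus stood apart from the other libraries of their accession, and calls that turn on them are given with and without them. With edgeR's quasi-likelihood test, 6260 of 24738 tested genes, or 25.3%, were called, which required an adjusted p no higher than 0.05 and a log2 fold change of 1 or more in size. Of all tested genes, 12.5% were called as higher in B010 and 12.8% as higher in B003. In 54.4% the ranges of the accessions were separate, 26.7% with B010 higher and 27.6% with B003 higher. Log2 fold changes have B010 on top, so a negative value means a lower level in B010. Levels are in FPKM, fragments scaled to the exon length of the gene and to the depth of the library, unless CPM is named.

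All 10 genes passed the filter on low counts, and they fell into 1 gene with a higher level in B010 and 9 with a lower one. Of the 10, 9 met the limits of a call (1 higher in B010, 8 higher in B003), beside 25.3% of all tested genes, and in the same 9 genes the accessions did not overlap, beside 54.4%. Since the genes were selected on this contrast, nothing is read from these counts. Their median log2 fold change was -1.85 and their median absolute log2 fold change 2.03, against 0.01 and 0.57 over all tested genes. Among the genes that met the limits, Capann_59Chr06g006320 lay closest to the fold limit at -1.14. Capann_59Chr12g025230 had a value of -3.16 but missed the limit on the adjusted p in edgeR. With DESeq2 it met both limits (log2 fold change -3.17).

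The absolute levels set 1 gene apart from the rest. The median level of the 10 genes was 2.42 FPKM in B010 and 9.29 FPKM in B003, while the median tested gene stood at 9.0 FPKM in B010 libraries and at 8.74 FPKM in B003. By their mean level, 9 of the 10 genes lay below the median gene in B010 and 4 did in B003. Over all 6 libraries the mean levels ran from 0.641 FPKM for Capann_59Chr11g025550 to 78.0 FPKM for Capann_59Chr03g000960, with the next gene, Capann_59Chr12g024960, at 10.9 FPKM. The following genes in this order, Capann_59Chr06g006320 at 10.6 FPKM and Capann_59Chr04g014010 at 7.64 FPKM, cannot be ranked apart from it, because in each the libraries spanned a wider range than the steps between the genes.

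**Figure D1:**
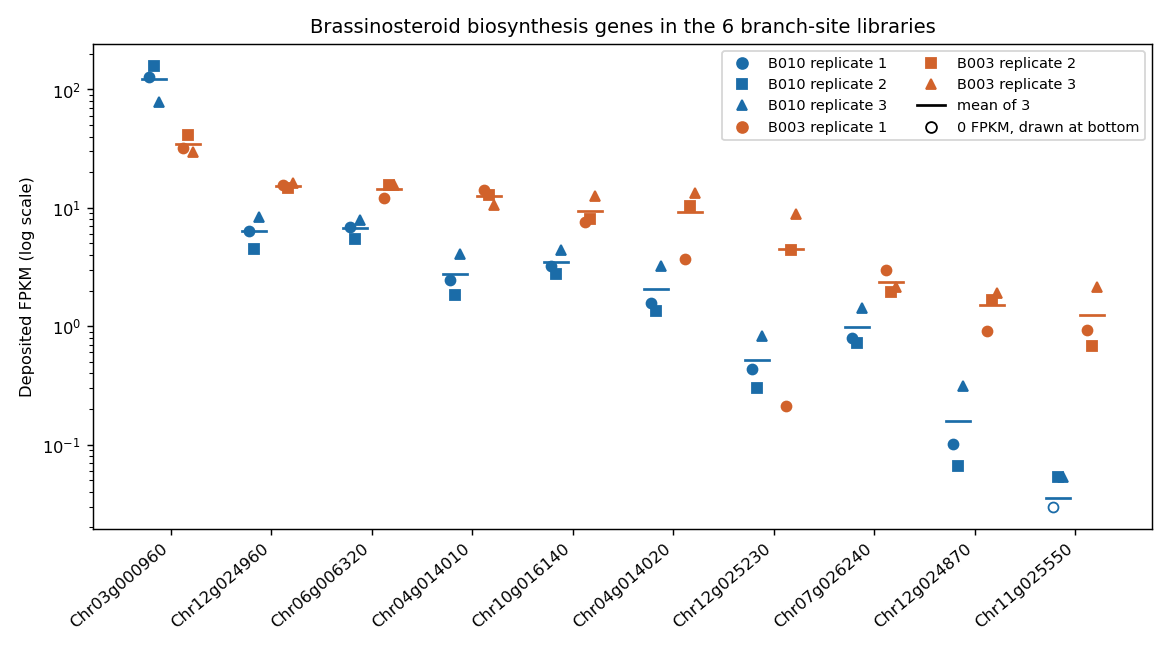
Deposited FPKM of the 10 genes in each library on a log axis, with B010 to the left of B003 for each gene, points for single libraries and lines for means; the identifiers lack their common prefix, and the genes run from the highest mean level to the lowest. Capann_59Chr03g000960 stands at 78.2 to 158 FPKM in B010 and at 29.7 to 41.5 FPKM in B003, while in 8 of the other 9 genes every B010 point lies below every B003 point.

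Capann_59Chr03g000960 was the most abundant of the genes in every library and the only one with more RNA in B010. It had 128, 158 and 78.2 FPKM in B010 replicates 1, 2 and 3, against 32.2, 41.5 and 29.7 FPKM in B003 replicates 1, 2 and 3. The lowest B010 library, replicate 3, was still above the highest B003 library. The means were 121 ± 40.3 FPKM in B010 and 34.5 ± 6.18 FPKM in B003 (mean ± SD, n = 3 each), a 3.57-fold higher level in B010 (log2 fold change 1.83, standard error 0.36). At its B010 level the gene stood above 96.9% of the tested genes, and at its B003 level above 85.4% of them. In bulk tissue, fewer cells that express a gene and less RNA per cell cannot be told apart, which holds for all values here.

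Because of this gene, the summed level of the 10 genes ran the other way from the direction of the 9 others. The sum was 150.2, 175 and 109 FPKM in B010, against 90.2, 112 and 113 FPKM in B003, or 145 ± 33.4 FPKM in B010 and 105 ± 12.9 FPKM in B003 (mean ± SD, n = 3 each). The libraries overlapped, since B010 replicate 3 lay below B003 replicates 2 and 3. Without Capann_59Chr03g000960 the sum was 21.8, 17 and 30.7 FPKM in B010, against 58.0, 70.3 and 83.5 FPKM in B003, with no overlap and a mean 3.05-fold higher in B003. Capann_59Chr03g000960 alone gave 85.5%, 90.3% and 71.8% of the sum in B010, against 35.7%, 37.1% and 26.3% in B003. The sums weigh each gene by its abundance, and since the genes were chosen by their difference they are a description of these libraries. They do not measure hormone synthesis. In a separate assay of hormone contents, the study found more brassinolide and castasterone in B003 than in B010.

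**Figure D2:**
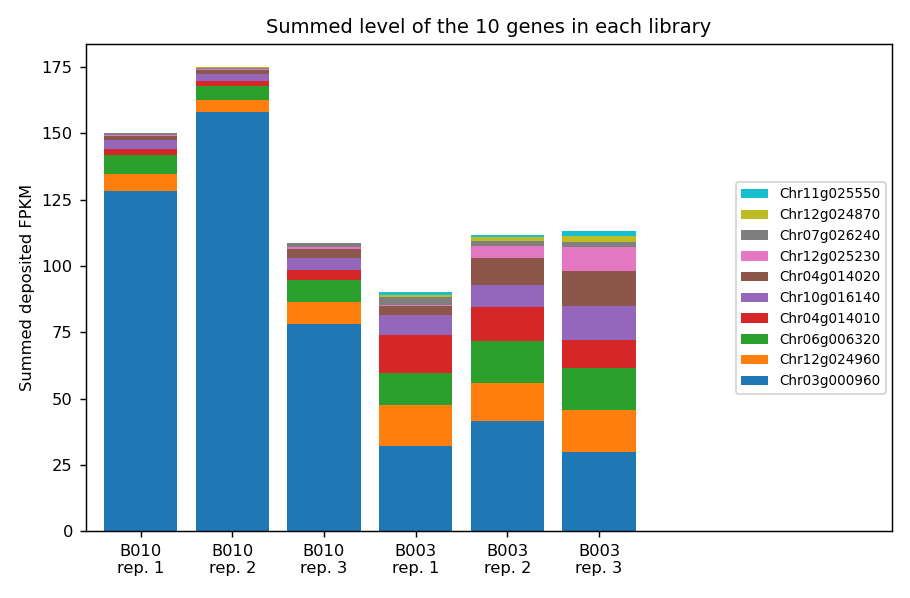
Summed deposited FPKM of the 10 genes in each library, stacked by gene, with the 3 B010 libraries left of the 3 B003 libraries. The lowest block, Capann_59Chr03g000960, makes up 71.8% to 90.3% of the bar in B010 and 26.3% to 37.1% in B003, and the stack of the other 9 genes above it is taller in all 3 B003 libraries than in any B010 library.

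Among the 9 other genes, 4 had similar moderate levels in all B003 libraries, between 7.53 and 16.2 FPKM. Capann_59Chr12g024960 had 6.39, 4.51 and 8.38 FPKM in B010, against 15.5, 14.6 and 16.2 FPKM in B003. The B003 libraries were close together and all above B010, with a mean of 6.43 ± 1.94 FPKM in B010 and 15.4 ± 0.767 FPKM in B003 (mean ± SD, n = 3 each), a 2.47-fold higher level in B003 (log2 fold change -1.30, standard error 0.18). Capann_59Chr06g006320 had 6.84, 5.41 and 7.97 FPKM in B010, against 12, 15.7 and 15.7 FPKM in B003. Its lowest B003 library, replicate 1, was above its highest B010 library, replicate 3, and its log2 fold change of -1.14 (standard error 0.18) was the smallest in size of the 10 genes.

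Capann_59Chr10g016140 had 3.24, 2.75 and 4.39 FPKM in B010, against 7.53, 8.12 and 12.6 FPKM in B003. The groups did not overlap, and B003 replicate 3 stood above the other libraries (log2 fold change -1.48, standard error 0.28). The ratio of its counts to its FPKM implies the shortest exon length of the 10 genes, 718 bases, where the median of the 10 was 1905 bases and that of all tested genes 1674 bases. Its counts were therefore small for its FPKM, at 61 to 111 in B010 libraries and 189 to 288 in B003 libraries.

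Capann_59Chr04g014010 and Capann_59Chr04g014020 carry consecutive identifiers on chromosome 4, and both were lower in every B010 library than in any B003 library. Capann_59Chr04g014010 had 2.44, 1.83 and 4.05 FPKM in B010, against 14.2, 12.8 and 10.6 FPKM in B003, and Capann_59Chr04g014020 had 1.58, 1.36 and 3.26 FPKM in B010, against 3.73, 10.3 and 13.4 FPKM in B003. Their fold changes were nearly equal, 4.66-fold and 4.70-fold higher in B003, but the standard error on the log2 scale was 0.25 for Capann_59Chr04g014010 and 0.56 for Capann_59Chr04g014020. Within B003, Capann_59Chr04g014010 was lowest in replicate 3, where Capann_59Chr04g014020 was highest. Replicate 1, the lowest for Capann_59Chr04g014020, was the highest for Capann_59Chr04g014010 in FPKM, but in CPM it was level with replicate 2 (26.3 in both). The ratio of Capann_59Chr04g014010 to Capann_59Chr04g014020 in FPKM was 1.54, 1.35 and 1.24 in B010, against 3.81, 1.24 and 0.788 in B003. The ratio was thus steady in B010. In B003 it was above the range of B010 in replicate 1, level with its lower end in replicate 2 and below it in replicate 3. Whether the genes are copies of each other, between which the counting could divide reads, was not tested, since no sequence of them was used here. Their implied exon lengths were 1965 and 2092 bases.

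The remaining 4 genes had low levels. Capann_59Chr07g026240 had 0.797, 0.722 and 1.42 FPKM in B010, against 3.01, 1.94 and 2.16 FPKM in B003. The highest B010 library, replicate 3, was below the lowest B003 library, replicate 2, and the level was 2.48-fold higher in B003 (log2 fold change -1.31, standard error 0.27).

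Capann_59Chr12g025230 was the only gene of the 10 in which the accessions overlapped. It had 0.433, 0.301 and 0.833 FPKM in B010, against 0.214, 4.42 and 8.79 FPKM in B003, or 28, 13 and 34 counts in B010, against 11, 192 and 374 counts in B003. B003 replicate 1 was below all 3 B010 libraries, while B003 replicates 2 and 3 were above all of them. Within B003 the highest library had 43.5 times the CPM of the lowest, and the means were 0.522 ± 0.277 FPKM in B010 and 4.48 ± 4.29 FPKM in B003 (mean ± SD, n = 3 each). The log2 fold change of -3.16 had a standard error of 1.18. Without B003 replicate 3 it was -2.22 and with a replicate block -2.38, while without B003 replicate 1 it was -3.73, and without both B003 replicate 1 and B010 replicate 3 it was -4.08, an omission chosen after seeing the data.

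Capann_59Chr12g024870 had 5, 2 and 9 counts in B010, against 32, 51 and 58 counts in B003. All B003 libraries were above all B010 libraries, at levels of 0.101, 0.0656 and 0.311 FPKM in B010, against 0.913, 1.67 and 1.93 FPKM in B003. Relative to depth, the counts summed over libraries were 9.51 times higher in B003, with a 95% interval of 5.66 to 17.1. This interval, like the next, covers counting error only and not the spread between libraries.

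Capann_59Chr11g025550 had the lowest level of the 10 genes. It had 0, 4 and 4 counts in B010, against 75, 49 and 149 counts in B003, which gave 0, 0.0537 and 0.0532 FPKM in B010, against 0.923, 0.683 and 2.13 FPKM in B003. Every B010 library was at or near the 3 counts that a count of 0 allows, so the gene was barely detectable in B010 at this depth. The same ratio for this gene was 36.8 in favour of B003, with a 95% interval of 18.4 to 86.2. The fitted log2 fold change of -5.08 (standard error 0.95), the largest in size of the 10, depends on the prior count in such a gene and sets no bound. At its B003 mean of 1.25 FPKM the gene was above 11.8% of the tested genes.

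**Figure D3:**
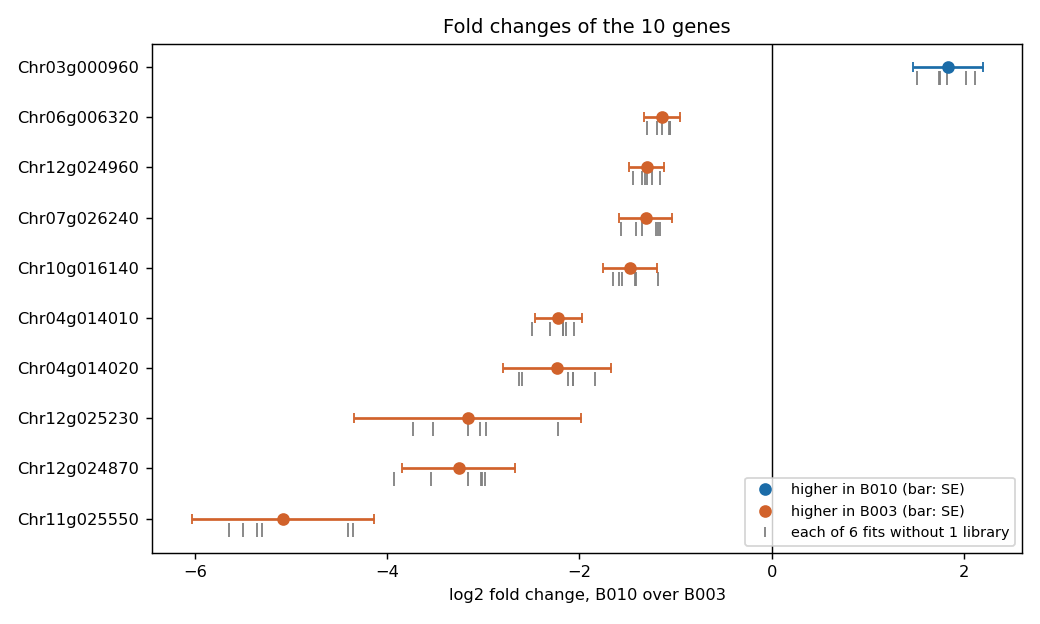
Log2 fold change of B010 over B003 of the 10 genes from edgeR, with bars of 1 standard error and small ticks for the fits that leave out 1 library. Only Capann_59Chr03g000960, at 1.83, lies to the right of 0, the others lie between -5.08 and -1.14, and no omission moves a gene across 0.

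The fitted values moved to different extents when the 6 libraries were left out one at a time. Since the genes were selected on this contrast and the accessions do not overlap in 9 of them, their direction was fixed by the choice. What follows is a description from which no stability is read, and the numbers of fits do not rank the genes. Capann_59Chr04g014010, Capann_59Chr11g025550, Capann_59Chr06g006320 and Capann_59Chr12g024960 met the limits of a call in all 6 fits. The log2 fold change ran from -2.49 to -2.05 for Capann_59Chr04g014010, from -5.65 (without B010 replicate 2) to -4.35 (without B010 replicate 1) for Capann_59Chr11g025550, from -1.30 to -1.05 for Capann_59Chr06g006320 and from -1.45 to -1.16 for Capann_59Chr12g024960. Capann_59Chr04g014020 met them in 2 of the 6 fits, those without B010 replicate 3 and without B003 replicate 1, with log2 fold changes between -2.63 and -1.84 over the 6. Capann_59Chr12g025230 met them in 1 fit, that without B003 replicate 1. Capann_59Chr12g024870, Capann_59Chr10g016140, Capann_59Chr07g026240 and Capann_59Chr03g000960 met them in 5 of the 6. Capann_59Chr03g000960 missed them without B003 replicate 3, with log2 fold changes between 1.51 and 2.12 over the 6 fits, and the other 3 genes missed them without B010 replicate 1. In all, 5 of the 10 genes met the limits without B010 replicate 1, a fit in which 3615 of 24771 tested genes did so. All 10 did without both B010 replicate 3 and B003 replicate 1, where 8543 of 24808 tested genes did so.

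The spread between libraries of one accession was also wider in these genes than in the typical gene. The median SD of log2 CPM was 0.475 in B010 and 0.379 in B003 for the 10 genes, against 0.231 in B010 and 0.255 in B003 over all tested genes. The part that the low level of most of the 10 genes had in this spread was not tested. For each gene, the library furthest towards the other accession was the lowest in CPM where its own accession was higher, and otherwise the highest. In 9 of the 10 genes this B010 library was replicate 3, which was so in 50% of all tested genes and in 57.5% of the called genes. In 6 of the 10 genes the B003 library furthest towards B010 was replicate 1, which was so in 52.8% of all tested genes and in 56.6% of the called genes. B010 replicate 3 and B003 replicate 1 are the libraries that stood apart in their accessions.

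Neighbouring genes, which the selection did not use, were taken as the listed genes on the same chromosome whose identifier lay within 5 steps of 10 of one of the 10 genes. Identifiers were taken to follow the order along the chromosome, and distances in bases are not known here. There were 40 such neighbours, of which 39 were tested. Of these, 10 were called (edgeR, adjusted over all tested genes), or 25.6%, close to the 25.3% of all tested genes, with 3 higher in B010, beside 12.5% of all tested genes, and 7 higher in B003, beside 12.8%. In 21 of the 39 the libraries did not overlap, beside 54.4% of all tested genes, and their median log2 fold change was 0.01, equal to that of all tested genes. With a window of 10 identifier steps 21 of 89 tested neighbours were called, or 23.6%, and among the identifiers directly next to one of the genes 1 of 7 was, or 14.3%. As a group, the neighbours were thus called about as often as genes at large. The count of 10 became 6 of 39 tested without B010 replicate 1 or B010 replicate 2. Without B003 replicate 3 it was 6 of 40. Over the whole table these fits called 3615 of 24771, 4560 of 24780 and 4117 of 24805 genes, against 6260 in the main fit. Without both B010 replicate 3 and B003 replicate 1 it was 17 of 40, where 8543 of 24808 genes were called over the whole table.

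**Figure D4:**
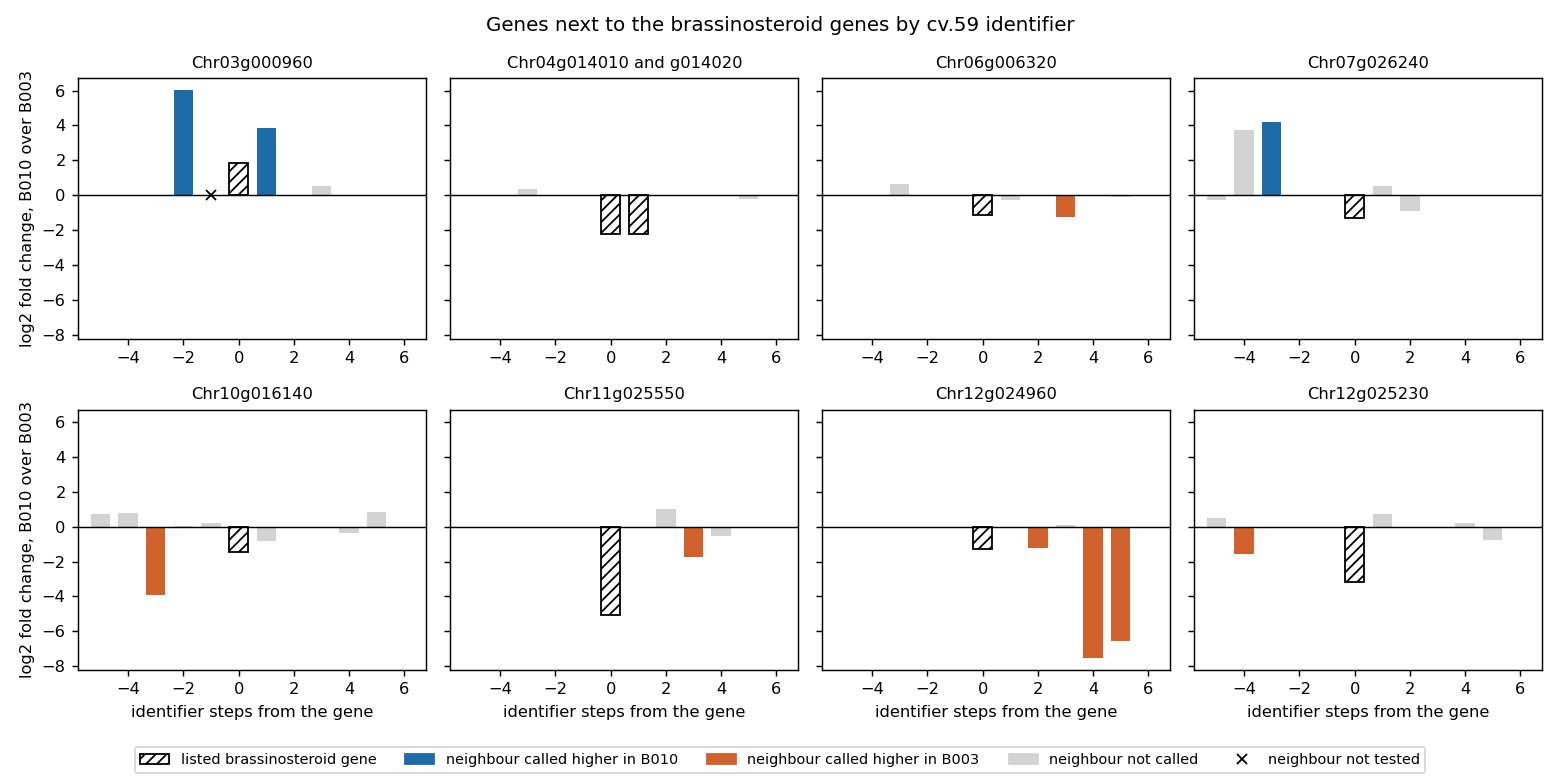
Log2 fold change of B010 over B003 (bar height) for 9 of the 10 genes (hatched) and their listed neighbours within 5 identifier steps (horizontal axis), in blue where called as higher in B010, in orange where called as higher in B003, in grey where not called and as a cross where not tested. Of the 39 neighbours 10 were called, 3 to the side of higher B010 and 7 to the side of higher B003, and Capann_59Chr12g024870 has no listed neighbour in the window.

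On chromosome 3, the 2 listed genes before Capann_59Chr03g000960 and the next one after it had higher levels in B010. Beyond them, Capann_59Chr03g000930 (log2 fold change -0.03, adjusted p = 0.855 in edgeR) and Capann_59Chr03g000990 (0.57, adjusted p = 0.0431 in edgeR) were not called, and they are named here after their values were seen. Capann_59Chr03g000970, the next identifier, had 643, 742 and 181 FPKM in B010, against 21.5, 62.2 and 27.9 FPKM in B003. All B010 libraries were above all B003 libraries, replicate 3 being the lowest in B010, and the gene was called (log2 fold change 3.83 ± 0.77 SE, adjusted p = 0.0134 in edgeR). Without B003 replicate 3 it was no longer called, at an adjusted p of 0.0561 in edgeR, while its direction held in all 6 fits. At its B010 level it ranked 51 among all tested genes, against 3310 in B003. The ratio of Capann_59Chr03g000970 to Capann_59Chr03g000960 was 5.0, 4.70 and 2.32 in B010, against 0.668, 1.5 and 0.939 in B003, so that the neighbour was the more abundant gene in all B010 libraries and in 1 B003 library.

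On the other side, Capann_59Chr03g000940 was counted 182, 120 and 11 times in B010, against 0, 4 and 0 times in B003, and Capann_59Chr03g000950 194, 143 and 8 times in B010, against 3, 0 and 0 times in B003. Both were almost undetected in B003, and in both B010 replicate 3 was far below the other B010 libraries. Capann_59Chr03g000940 was called (log2 fold change 6.01 ± 1.44 SE, adjusted p = 0.0223 in edgeR), but of the 6 fits that left out a library only that without B010 replicate 3 called it. Relative to depth, its summed counts were 72.5 times higher in B010, with a 95% counting interval of 28.0 to 268. Capann_59Chr03g000950 did not pass the filter on low counts and was not tested in this fit. Relative to depth, its summed counts were 107 times higher in B010, with a 95% counting interval of 36.2 to 519.

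**Figure D5:**
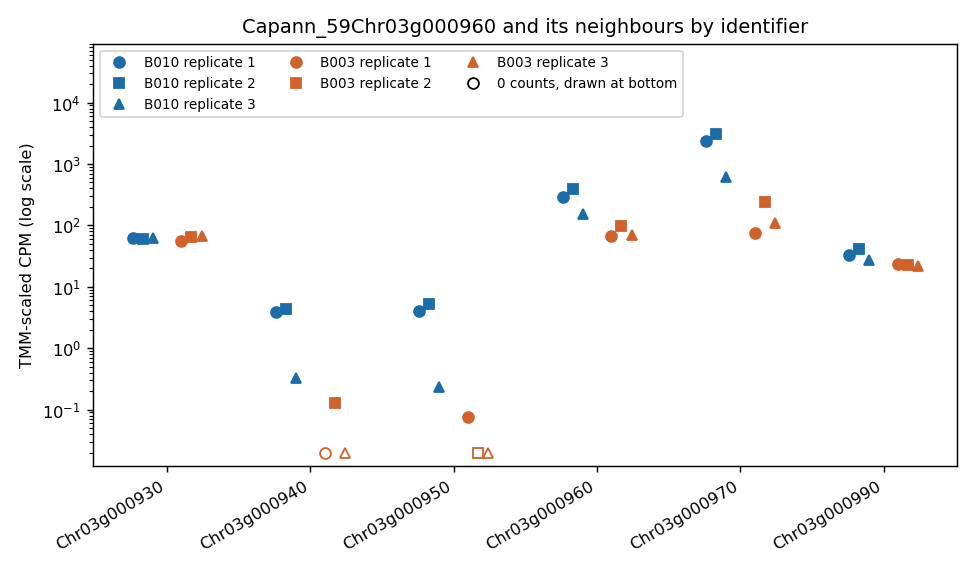
TMM-scaled CPM of Capann_59Chr03g000960 and its listed neighbours in each library, in the order of their identifiers on chromosome 3 and on a log axis, with B010 left of B003 at each gene. The B010 points lie above the B003 points from Capann_59Chr03g000940 to Capann_59Chr03g000970, with B010 replicate 3 the lowest B010 point in each of these 4 genes; open symbols at the bottom stand for 0 counts.

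On chromosome 12, which holds 3 of the 10 genes, the stretch between Capann_59Chr12g024870 and Capann_59Chr12g025230 lists 15 other genes, all tested. Of these, 4 were called, or 26.7%, beside 25.3% of all tested genes. All 4 were higher in B003, a call made in 12.8% of all tested genes. The fitted log2 fold change favoured B010 in 10 of the 15 genes and B003 in 5. The libraries did not overlap in 8 genes, beside 54.4% of all tested genes. These were 4 with B010 higher, beside 26.7%, and 4 with B003 higher, beside 27.6%. Capann_59Chr12g025000 was counted 0, 0 and 3 times in B010, against 221, 178 and 182 times in B003 (log2 fold change -7.52 ± 0.78 SE, adjusted p = 0.00199 in edgeR). Capann_59Chr12g025010 was counted 5, 0 and 0 times in B010, against 204, 109 and 131 times in B003 (log2 fold change -6.52 ± 0.81 SE, adjusted p = 0.00314 in edgeR). Both were close to undetected in B010, and both calls held in all 6 fits that left out a library. Such fitted values depend on the prior count. Relative to depth, the summed counts were higher in B003 by 209 times for Capann_59Chr12g025000 (95% counting interval 71.2 to 1016) and by 95.8 times for Capann_59Chr12g025010 (40.8 to 297). Without B010 replicate 1, B010 replicate 2, B003 replicate 2 or B003 replicate 3, these were the only 2 calls of the stretch.

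The other called genes of the stretch differed less. Capann_59Chr12g024980 had 92.9, 104 and 207 CPM in B010, against 245, 322 and 395 CPM in B003, and was called (log2 fold change -1.25 ± 0.36 SE, adjusted p = 0.0390 in edgeR). Capann_59Chr12g025190 had 4.93, 5.36 and 6.69 CPM in B010, against 8.90, 18.3 and 24.1 CPM in B003, and was called as well (log2 fold change -1.59 ± 0.38 SE, adjusted p = 0.0215 in edgeR). In both, B003 replicate 1 was the lowest B003 library, as it was in Capann_59Chr12g025230, and each was called in 2 of the 6 fits that left out a library, those without B010 replicate 3 and without B003 replicate 1. In the other 4 fits the adjusted p in edgeR was between 0.1 and 0.124 for Capann_59Chr12g024980 and between 0.0631 and 0.0853 for Capann_59Chr12g025190. With no scaling factors Capann_59Chr12g024980 was not called either, at an adjusted p of 0.0646 in edgeR. Capann_59Chr12g025240, next to Capann_59Chr12g025230, had a log2 fold change of 0.71 (edgeR adjusted p = 0.277). It was not called, so no difference passed the test there.

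Around the other genes, single neighbours were called while the nearest ones mostly were not. Next to Capann_59Chr10g016140, both Capann_59Chr10g016130 (log2 fold change 0.18, edgeR adjusted p = 0.454) and Capann_59Chr10g016150 (-0.81, edgeR adjusted p = 0.0431) missed the limits of a call, the second only by its fold change. Capann_59Chr10g016110 was counted 44, 27 and 26 times in B010, against 462, 367 and 494 times in B003, which was called (log2 fold change -3.89 ± 0.22 SE, adjusted p = 0.000847 in edgeR). That standard error was the smallest among the called neighbours.

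On chromosomes 7 and 11, 1 neighbour each was called. Capann_59Chr07g026210, near Capann_59Chr07g026240, had 163, 235 and 27.9 CPM in B010, against 6.79, 6.24 and 9.92 CPM in B003 (log2 fold change 4.21 ± 0.80 SE, adjusted p = 0.0112 in edgeR). It was higher in all B010 libraries, opposite in direction to Capann_59Chr07g026240, whose immediate neighbours Capann_59Chr07g026230 (0.01) and Capann_59Chr07g026250 (0.52) were not called. Capann_59Chr11g025580, near Capann_59Chr11g025550, had 11.4, 16.0 and 8.67 CPM in B010, against 37.9, 45.7 and 39.0 CPM in B003 (log2 fold change -1.77 ± 0.24 SE, adjusted p = 0.0043 in edgeR). The gene between them, Capann_59Chr11g025570, had a log2 fold change of 0.98 and an edgeR adjusted p of 0.0520, and was not called. It was called without B010 replicate 3 (1.23, adjusted p = 0.0135 in edgeR) and without both B010 replicate 3 and B003 replicate 1 (1.40, adjusted p = 0.00413 in edgeR).

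Near Capann_59Chr06g006320, Capann_59Chr06g006350 had 31.1, 20.4 and 40.3 CPM in B010, against 66.4, 69.1 and 77.7 CPM in B003 (log2 fold change -1.21 ± 0.26 SE, adjusted p = 0.0151 in edgeR), and was not called without B010 replicate 1 (adjusted p = 0.0636 in edgeR), without B010 replicate 2 (log2 fold change -0.99) or without B003 replicate 3 (adjusted p = 0.0541 in edgeR). The accessions did not overlap. The nearest listed neighbours, Capann_59Chr06g006290 (log2 fold change 0.65, adjusted p = 0.0875 in edgeR) and Capann_59Chr06g006330 (-0.25, adjusted p = 0.463 in edgeR), were not called. Capann_59Chr06g006290 was called only without both B010 replicate 3 and B003 replicate 1 (1.04, adjusted p = 0.00211 in edgeR), and it ran opposite to Capann_59Chr06g006320.

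On both sides of the chromosome 4 pair no neighbour was called, with a log2 fold change of 0.39 for Capann_59Chr04g013980 (edgeR adjusted p = 0.292) and of -0.21 for Capann_59Chr04g014060 (edgeR adjusted p = 0.873). The standard error of Capann_59Chr04g014060 was 0.92, and its direction turned when B010 replicate 3 or B003 replicate 1 was left out, so no difference of moderate size was detectable for it.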

How the data were processed

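RNA-seq of the first branch site was re-analysed from 3 libraries each of B010 and B003. The counts were deposited as raw whole numbers for each gene and the deposited FPKM values were computed by the authors from exon length and mapped reads. Per the submitters' notes and the study's methods, reads were aligned with HISAT2 to the cv.59 genome, and StringTie was also named. The counting program, its use of strand and its treatment of reads with several alignments are not given in the sources used here, so near-identical or overlapping genes have uncertain counts. The log2 fold changes and p-values that the authors deposited are of B003 over B010 and were not used. The number of per-sample columns left unused was 0.

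Genes were kept by the expression filter of edgeR 4.0.16 in R 4.3.3, which removed 91 of 24829, and TMM factors lay between 0.923 and 1.12. The accessions were compared by the quasi-likelihood test over 24738 genes with Benjamini-Hochberg adjustment, and the standard error was obtained by dividing the log2 fold change by √F. Exon lengths were derived from counts and FPKM in libraries with at least 20 counts. A ratio of counts carries an exact 95% binomial interval. The test was tried on simulated counts first. Alternatives were DESeq2 1.42.0, limma 3.58.1 on log2(FPKM + 1) and log2(FPKM + 0.1), other scaling, filters and fold limits, the replicate number as a block, other neighbour windows, and the omission of each library.

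All 10 genes were named, and of the neighbours those called and the nearest listed one on each side. The genes and lists were chosen with earlier results of these data known. The replicates are separate pools of plants per the study's methods. Libraries of the same accession differed by more than sampling noise, with a chi-square statistic per degree of freedom of at least 28.9.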

Additional observations from a re-analysis of the deposited data

How the results depend on the processing

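Of the 10 genes, 9 met the limits of a call, between 5 and 10 when 1 library was left out, 4 with the fold limit raised to 2 (log2), 10 with DESeq2 and 8 with limma on log2(FPKM + 1), and their direction, fixed by the choice of genes, did not change. Over all genes the 6260 calls became 3615 to 6967 when 1 library was left out, 7279 with DESeq2, 4781 with limma on log2(FPKM + 1) after a filter, 3229 with the limit of 2, 9598 with no fold limit and 8543 without B010 replicate 3 and B003 replicate 1, an omission chosen after seeing the data. The 10 called neighbours became 6 to 13 when 1 library was left out, 6 with the limit of 2, 18 with no fold limit, 1 within 1 identifier step and 21 within 10 steps. They became 17 without B010 replicate 3 and B003 replicate 1, 12 with DESeq2, 9 with no scaling factors and 11 with no filter on low counts, of which 4 were higher in B010. On chromosome 12 the 4 calls became 2 to 5 when 1 library was left out, 2 with the limit of 2 and 3 with no scaling factors. They became 5 with DESeq2 and 5 without B010 replicate 3, and in each of these 1 was higher in B010. The summed level of the 10 genes was 1.38 times higher in B010, with a range of 1.23 to 1.55 when 1 library was left out, and turned to 0.328 without Capann_59Chr03g000960, by construction. The log2 fold change of Capann_59Chr04g014060 ran from -1.20 to 0.34 when 1 library was left out and was 0.84 without B010 replicate 3 and B003 replicate 1. That of Capann_59Chr07g026230, near 0, was -0.0154 with upper-quartile factors, 0.198 without B010 replicate 3 and B003 replicate 1, and ran from -0.18 to 0.11 when 1 library was left out. The cause of these shifts was not tested.

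The deviations of same-numbered libraries from the means of their accessions correlated at -0.00000914, 0.0797 and 0.178. Those of differently numbered libraries correlated between -0.167 and 0.0844. Deviations from a mean of 3 libraries are tied to each other, so these values cannot show whether the replicate numbers pair the libraries. With a replicate block 5458 genes were called, 9 of the 10 genes, 10 neighbours and 4 genes of the chromosome 12 stretch, and Capann_59Chr07g026230 stood at -0.0017. Levels near 3 counts, as in B010 for Capann_59Chr11g025550 and Capann_59Chr12g024870, limit the precision of their ratios.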
